A study of Mus musculus with 12 samples.

Results

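RNA was counted for 10 enzymes of the pentose phosphate pathway and of cytosolic NADPH supply in regulatory T cells (Tregs) with a mutation of Gclc and in wild-type (WT) Tregs. The 10 genes were taken by name from the 49671 genes in the files: G6pdx, Pgls and Pgd of the oxidative branch, Rpia, Rpe, Taldo1 and Tkt of the non-oxidative branch, Prps1, and the NADPH enzymes Me1 and Idh1. No measured value was a criterion, but the choice was made with earlier results of these data known. All 10 were in the files, and 9 had enough counts to be tested, Me1 being the exception.

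The oxidative branch of the pentose phosphate pathway diverts glucose 6-phosphate from glycolysis and reduces NADP to NADPH while it makes a pentose phosphate. The non-oxidative branch interconverts pentose phosphates with the sugar phosphates of glycolysis and can run in either direction, and phosphoribosyl pyrophosphate made from ribose 5-phosphate is the sugar donor for nucleotides. NADPH is the reductant with which glutathione reductase and thioredoxin reductase restore glutathione and thioredoxin, and it is used for lipid and deoxynucleotide synthesis in dividing T cells.

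All mice were C57BL/6 and 8 weeks old. Tregs sorted directly from the animals (nTregs) and Tregs that were differentiated in vitro out of naive CD4 T cells (iTregs) were each profiled from WT mice and from mice labelled Gclc mutant, as 3 libraries a group, which makes 12 libraries in 4 groups. The Gclc product is the catalytic part of glutamate-cysteine ligase, which begins glutathione synthesis. The sample titles mark the mutant libraries KO, and the labels say no more of the kind of mutation. They give neither the cells that carry it nor whether each library is a separate animal or culture. The p-values therefore rest on the spread between these libraries, which may be technical.

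Gclc was lower in every mutant library, by a log2 fold change of -0.81 ± 0.07 (SE) in nTregs and -1.46 ± 0.08 in iTregs. The deposited counts summed to between 28707579 and 39886130 per library. A chi-square test between pairs of libraries within a group gave 4.2 to 47.2 per degree of freedom, where counting noise alone gives about 1. By this measure nTreg mutant library 1 stood apart with 41.1 to 47.2 against the other libraries of its group. iTreg mutant library 4 stood apart with 21.7 to 22, where the other pair of its group had 6.41. iTreg WT library 3 had 10.8 to 13.8, where the other pair of its group had 4.2. Summed markers of Tregs were present in all libraries (2370 to 3630 CPM, counts scaled to a common library total). Of these 7 markers, 0 were higher and 2 lower in mutant nTregs, and 1 was higher and 1 lower in mutant iTregs. Foxp3, the defining factor, was lower in mutant nTregs (178 ± 41.2 against 578 ± 28.5 CPM) and mutant iTregs (92.9 ± 15.9 against 293 ± 6.89 CPM, SD, n = 3). The 10 markers of CD8 T and NK cells summed to 57.7 to 65.0 CPM in WT nTregs, to 165 and 187 CPM in nTreg mutant libraries 4 and 2 and to 1560 CPM in nTreg mutant library 1, with 9 of 10 markers higher in mutant nTregs and none at 0 in either nTreg group. In iTregs they summed to 37.8 to 89.1 CPM, with 3 of 10 at 0. The 5 markers of B cells summed to 168 to 395 CPM in nTregs and 2.39 to 3.68 CPM in iTregs. Summed markers of erythroid cells (5 genes) were at 56.5 to 452 CPM in nTregs and at most 0.147 CPM in iTregs. Those of myeloid cells (7 genes) were at 18.6 to 44.6 CPM in nTregs and 2.19 to 8.08 CPM in iTregs. The 12 markers of dividing cells were all higher in mutant nTregs (2120 to 3590 against 769 to 1040 CPM), and 6 of 12 were higher in mutant iTregs (5100 to 6170 against 3370 to 4780 CPM). The part of these marker differences in the results for the enzymes was not tested. In bulk RNA, fewer cells of a type and less RNA per cell cannot be told apart.

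The sequences at the start sites are shown because NRF2, the transcription factor of the antioxidant response, is known to act on genes of NADPH supply through the antioxidant response element. RefSeq (GRCm38.p6) listed 13 promoters of 300 bases, 250 before to 50 after a start site, for the 10 genes. The core of that element, searched as TGACNNNGC on both strands, was found in 3 of the 13, and 12.4% of all 32851 promoters in the table held it. The 3 stretches are printed 5′ to 3′ on the strand of the gene, with the match in capitals. The G6pdx match, on the opposite strand, lay at chrX:74428929-74428937, inside the stretch chrX:74428919-74428947. The Me1 match was at chr9:86695912-86695920 within chr9:86695902-86695930. The Pgd match was at chr4:149166071-149166079 within chr4:149166061-149166089, at the more downstream of the start sites listed for Pgd. All 3 genes are on the minus strand.
G6pdx: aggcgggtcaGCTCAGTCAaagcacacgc
Me1: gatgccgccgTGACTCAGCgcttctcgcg
Pgd: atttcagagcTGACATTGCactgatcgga
A match describes these letters only. The promoters of the other 7 genes did not hold this core in these windows.

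The stretches before the start sites of Prps1, Rpe and Taldo1 are shown because these 3 genes changed with genotype in iTregs. Each is 250 bases on the plus strand and lies outside annotated exons. Capitals mark the GC box (GGGCGG or, on the opposite strand, CCGCCC) and the CCAAT box (CCAAT or ATTGG). They lie at chrX:140456353-140456602 for Prps1, chr1:66700581-66700830 for Rpe and chr7:141391910-141392159 for Taldo1.
Prps1: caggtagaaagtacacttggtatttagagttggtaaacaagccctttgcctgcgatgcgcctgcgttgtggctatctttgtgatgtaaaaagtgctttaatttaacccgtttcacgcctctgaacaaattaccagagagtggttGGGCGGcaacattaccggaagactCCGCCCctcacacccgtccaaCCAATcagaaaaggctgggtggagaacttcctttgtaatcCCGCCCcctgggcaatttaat
Rpe: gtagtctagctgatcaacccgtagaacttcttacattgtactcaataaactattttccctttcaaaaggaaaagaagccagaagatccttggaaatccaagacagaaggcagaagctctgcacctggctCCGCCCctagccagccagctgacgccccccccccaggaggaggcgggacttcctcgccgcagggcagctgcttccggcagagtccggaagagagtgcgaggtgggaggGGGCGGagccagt
Taldo1: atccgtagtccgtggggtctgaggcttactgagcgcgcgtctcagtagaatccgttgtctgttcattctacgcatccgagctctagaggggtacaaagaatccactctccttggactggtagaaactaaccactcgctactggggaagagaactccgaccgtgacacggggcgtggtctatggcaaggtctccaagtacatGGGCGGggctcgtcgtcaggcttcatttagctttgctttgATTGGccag
A GC box was found in 11 of the 13 promoters, against 35.7% of all promoters, and CCAAT in 6 of 13, against 37.4%. The E-box CACGTG (7.15% of all promoters), TATAAA (13.6%) and the sterol regulatory element core TCACNCCAC (1.24%) were found in none of the 13.

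In mutant against WT nTregs, 4 of the 9 tested enzymes rose and none fell (edgeR quasi-likelihood test, adjusted p below 0.05, Benjamini-Hochberg over all 17977 genes tested). Those were G6pdx, Rpia, Tkt and Prps1. Over all genes tested, 34.9% were called, 19.3% higher and 15.6% lower, and the median log2 fold change of the 9 enzymes was 0.28 against 0.04 for all genes. In mutant against WT iTregs, Rpe and Prps1 rose, Taldo1 fell and 6 did not pass, against 25.4% of all genes called, 14% higher and 11.4% lower. The median there was 0.14, against 0.04 over all genes. The nTreg and iTreg comparisons share no library beyond a common estimate of the spread. In the test of the difference between these effects Tkt and Taldo1 were lower in the iTreg effect than in the nTreg effect, 7 enzymes did not pass, and 13.3% of all genes were called, 6.12% higher and 7.18% lower. The iTreg share of called genes was 9.6% without iTreg WT library 1, 11.1% without WT library 2, 12.7% without mutant library 1 and 15.5% without mutant library 2. It was 34% without nTreg mutant library 1 and between 21% and 26.2% with any other library left out. The share for the difference was 6.57% without nTreg WT library 1, 6% without nTreg WT library 2, 7.46% without iTreg WT library 1, 6.78% without iTreg WT library 2, 7% without iTreg mutant library 1 and 7.06% without iTreg mutant library 2. That share was 17.5% without nTreg mutant library 1 and between 9.44% and 14.8% with any other library left out. The nTreg share was between 24.4% and 35.6% with any library left out. Of the 9 enzymes, 2 rather than 4 were higher in mutant nTregs without nTreg WT library 1 or WT library 3, as G6pdx and Prps1 no longer passed. In mutant iTregs 1 rather than 2 was higher, Rpe, without iTreg WT library 1 or 2 or mutant library 1 or 2.

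**Figure D1:**
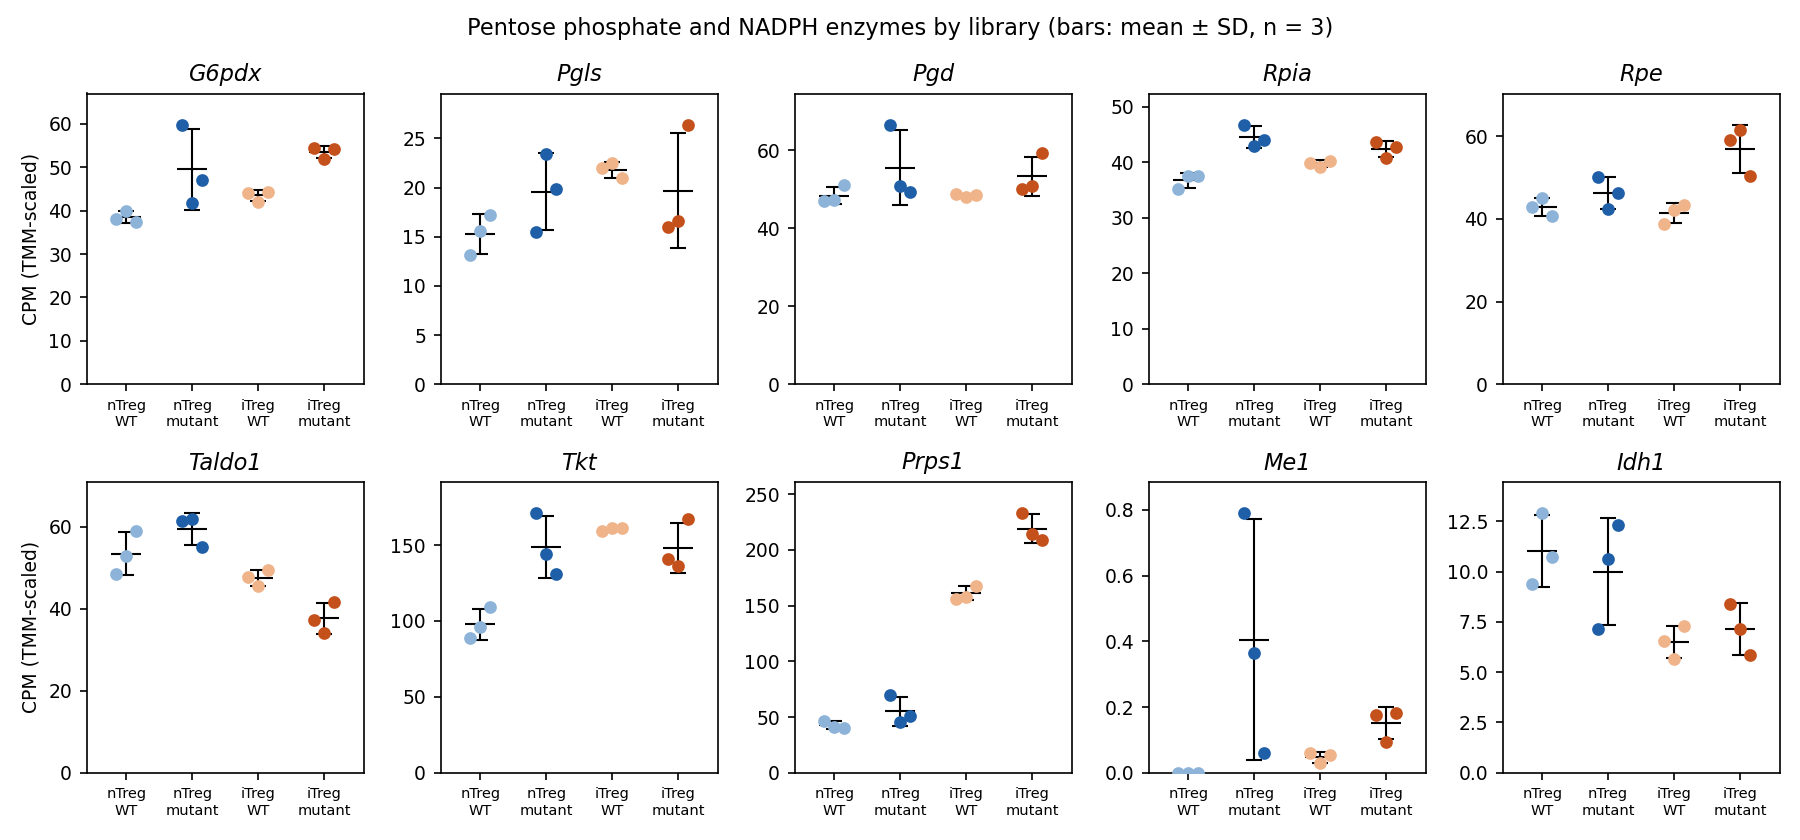
CPM (scaled by TMM library sizes) of each of the 10 enzymes in each library, by group, with the mean and SD over 3 libraries as bars and axes from 0. Tkt in the 3 WT nTreg libraries sits at 88.5 to 109 CPM, below the 131 to 171 CPM of the mutant nTregs. Prps1 sits at 40.1 to 69.7 CPM in nTregs and at 156 to 233 CPM in iTregs.

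**Figure D2:**
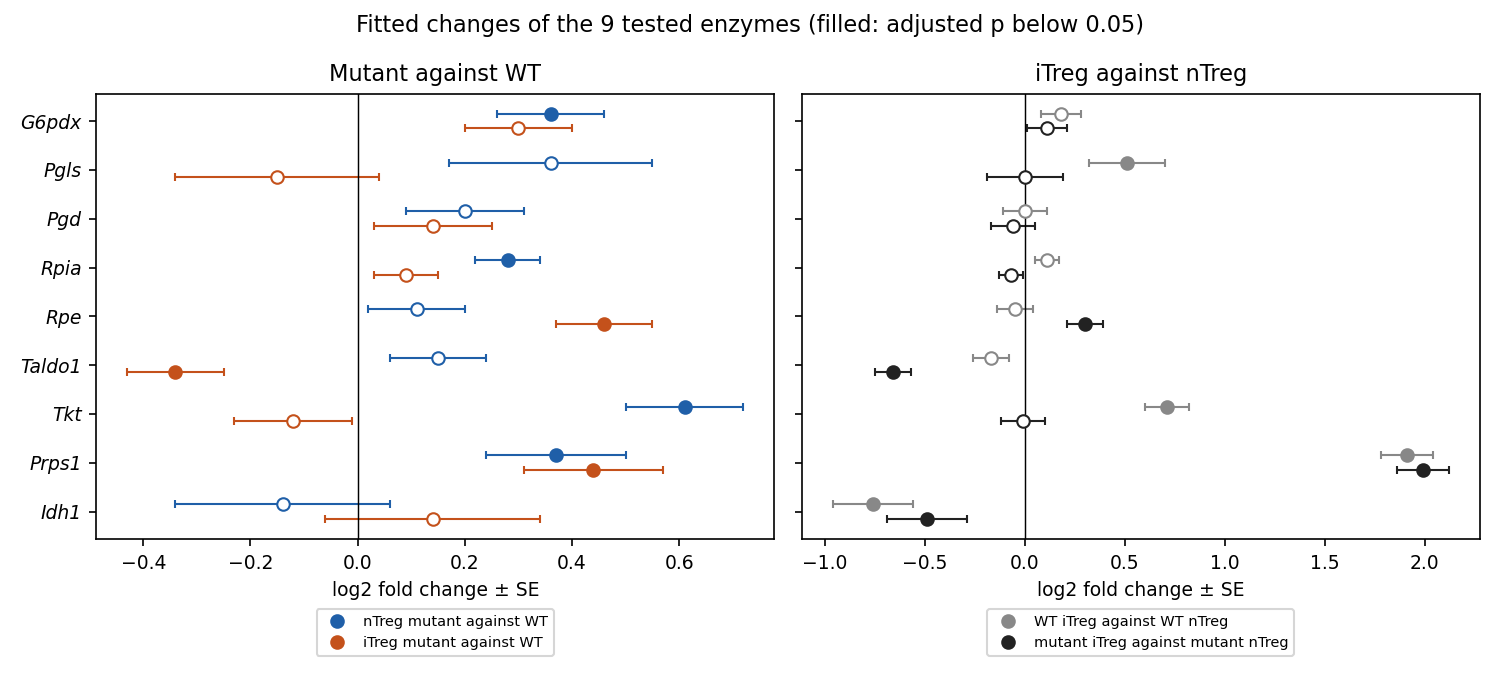
Fitted log2 fold change with its SE for the 9 tested enzymes, mutant against WT in the left panel and iTreg against nTreg in the right, filled where the adjusted p was below 0.05. Rpe (0.46) and Taldo1 (-0.34) are filled for iTregs only on the left, and Prps1 stands near 2 on the right (1.91 in WT and 1.99 in mutant cells).

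G6pdx (ENSMUSG00000031400, GRCm38 chrX:74409483-74429194, minus strand) encodes glucose-6-phosphate dehydrogenase, which takes the committed NADPH-forming step of the oxidative branch. Its CPM values were 38.0, 40.0 and 37.4 in WT nTreg libraries 1, 2 and 3 and 59.8, 41.8 and 47.0 in mutant nTreg libraries 1, 2 and 4, the order kept below for the other enzymes. Every mutant nTreg library lay above every WT one, and library 1 was the highest. The log2 fold change was 0.36 ± 0.10 (SE, adjusted p = 0.0183, edgeR). Omitting nTreg WT library 1 (adjusted p = 0.0586) or WT library 3 (adjusted p = 0.0783), or fitting the nTreg libraries alone (adjusted p = 0.0723), ended the call. With nTreg mutant library 1 omitted, the change was 0.23 ± 0.07 (adjusted p = 0.0195). For iTregs the G6pdx values were 44.1, 42.0 and 44.2 CPM (WT) and 54.4, 51.8 and 54.2 CPM (mutant), again with no overlap. That difference, 0.30 ± 0.10, missed the threshold (adjusted p = 0.0517), and it passed with the iTreg libraries fitted alone (0.26 ± 0.06, adjusted p = 0.00942), with RLE scaling (adjusted p = 0.0423) and with DESeq2 (adjusted p = 0.0238). The iTreg difference also passed in edgeR without nTreg mutant library 1 (0.26 ± 0.06, adjusted p = 0.00544) or nTreg mutant library 2 (0.29 ± 0.08, adjusted p = 0.0255). The nTreg and iTreg effects on G6pdx differed by -0.06 ± 0.15 (adjusted p = 0.83). A retrocopy, G6pd2, is 93.2% identical over 2332 aligned bases and had 4.82% of the count of G6pdx, so reads could be shared between them.

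Pgd (ENSMUSG00000028961, chr4:149149991-149166771, minus strand) encodes 6-phosphogluconate dehydrogenase, the other NADPH-forming enzyme of the branch. WT nTreg libraries had 47.1, 47.2 and 51.0 CPM and mutant nTreg libraries 66.6, 50.9 and 49.3 CPM, which overlapped. The nTreg difference of 0.20 ± 0.11 did not pass (adjusted p = 0.165) and was 0.08 without nTreg mutant library 1. In iTregs Pgd was at 48.9, 48 and 48.5 CPM in WT and 50.2, 50.9 and 59.2 CPM in mutant libraries. The iTreg groups did not overlap, but the difference of 0.14 ± 0.11 did not pass (adjusted p = 0.355).

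Pgls (ENSMUSG00000031807, chr8:71592176-71601092, plus strand) encodes the lactonase between those dehydrogenases. Its nTreg values were 13.1, 15.6 and 17.2 CPM (WT) and 15.5, 23.4 and 19.9 CPM (mutant). The iTreg libraries had 22.0, 22.5 and 21.0 CPM (WT) and 16, 16.6 and 26.4 CPM (mutant), where library 4 lay above all WT libraries and the others below them. Neither genotype difference passed (0.36 ± 0.19, adjusted p = 0.16 in nTregs, and -0.15 ± 0.19, adjusted p = 0.588 in iTregs). Without iTreg mutant library 4 the iTreg value was -0.42. Pgls shares 776 exon bases on the same strand with Fam129c, so its counts are uncertain. Of the oxidative branch, then, only G6pdx passed the test with genotype, and in nTregs.

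Rpia (ENSMUSG00000053604, chr6:70765720-70792232, minus strand) encodes ribose 5-phosphate isomerase, which makes ribose 5-phosphate from ribulose 5-phosphate. WT nTreg libraries had 35.2, 37.6 and 37.5 CPM and mutant nTreg libraries 46.8, 43.0 and 44.0 CPM, with no overlap. The rise was small and even, 0.28 ± 0.06 (adjusted p = 0.00498), and it passed with each of the 12 libraries left out (0.25 to 0.29). In iTregs Rpia was at 39.9, 39.2 and 40.3 CPM in WT and 43.6, 40.8 and 42.8 CPM in mutant libraries. These groups did not overlap either, but the difference of 0.09 ± 0.06 did not pass (adjusted p = 0.299).

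Rpe (ENSMUSG00000026005, chr1:66700831-66719805, plus strand) encodes ribulose-phosphate 3-epimerase, which turns the same substrate toward xylulose 5-phosphate. Its nTreg values were 42.9, 45.1 and 40.8 CPM (WT) and 50.1, 42.5 and 46.4 CPM (mutant), which overlapped (0.11 ± 0.09, adjusted p = 0.367). The iTreg libraries had 38.8, 42.2 and 43.3 CPM (WT) and 59.1, 61.5 and 50.4 CPM (mutant). Every mutant iTreg library was above every WT one, with library 4 the lowest of the 3. The rise was 0.46 ± 0.09, or 1.38-fold (adjusted p = 0.00428), and passed with each library left out (0.40 to 0.54). The iTreg effect exceeded the nTreg effect by 0.35 ± 0.13, which did not pass (adjusted p = 0.0817), and did pass with DESeq2 (adjusted p = 0.0386) and without iTreg mutant library 4 (0.43 ± 0.12, adjusted p = 0.029). Rpe overlaps Kansl1l by 558 exon bases on the opposite strand, and the counting was strand-specific.

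Taldo1 (ENSMUSG00000025503, chr7:141392199-141402968, plus strand) encodes transaldolase, which moves a dihydroxyacetone unit between sugar phosphates. WT nTreg libraries had 48.4, 52.9 and 59.0 CPM and mutant nTreg libraries 61.3, 61.9 and 55.0 CPM, with mutant library 4 inside the WT range (0.15 ± 0.09, adjusted p = 0.21). The iTreg libraries had 47.7, 45.4 and 49.5 CPM (WT) and 37.2, 34.1 and 41.5 CPM (mutant), all mutant values lower than WT. Taldo1 fell by 0.34 on the log2 scale (SE 0.09, 0.791-fold, adjusted p = 0.0191). That call was lost without iTreg WT library 1 (adjusted p = 0.0655), WT library 3 (adjusted p = 0.0523), mutant library 1 (adjusted p = 0.0658) or mutant library 2 (adjusted p = 0.0787), with values of -0.34 to -0.27. The iTreg effect was below the nTreg effect by a log2 difference of -0.49 ± 0.13 (adjusted p = 0.0279), which passed with 5 of the 12 libraries left out in turn and reached an adjusted p of 0.0728 without nTreg WT library 1. Gm17823 is 94.8% identical to Taldo1 over 1016 aligned bases and was not among the genes counted, so reads could be shared.

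Tkt (ENSMUSG00000021957, chr14:30548359-30574722, plus strand) encodes transketolase, the thiamine-dependent enzyme that moves a glycolaldehyde unit between sugar phosphates. It was at 88.5, 96.3 and 109 CPM in WT nTregs and 171, 144 and 131 CPM in mutant nTregs. The groups did not overlap, and the rise of 0.61 ± 0.11, or 1.52-fold (adjusted p = 0.00144), was the largest of the 9 tested enzymes in nTregs. It passed with each library left out (0.52 to 0.66), and was 0.52 ± 0.10 (adjusted p = 0.00226) without nTreg mutant library 1. In iTregs Tkt was at 159, 161 and 161 CPM in WT and 141, 136 and 167 CPM in mutant libraries. Mutant iTreg library 4 lay above the WT libraries and the others below, and the difference of -0.12 ± 0.11 did not pass (adjusted p = 0.457). The genotype effect was lower in iTregs than in nTregs by -0.72 ± 0.15 (adjusted p = 0.011), and this difference passed with each library left out (-0.82 to -0.66).

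Prps1 (ENSMUSG00000031432, chrX:140456613-140476140, plus strand) encodes a phosphoribosyl pyrophosphate synthetase, which commits ribose 5-phosphate to nucleotides. Its nTreg values were 46.7, 41.4 and 40.1 CPM (WT) and 69.7, 45.2 and 50.7 CPM (mutant). Mutant library 2 lay inside the WT range and library 1 was far the highest. The nTreg rise of 0.37 ± 0.13 passed (adjusted p = 0.0422), but only with 3 of the 12 libraries left out, and without nTreg mutant library 1 it was 0.19 ± 0.08 (adjusted p = 0.0744). The other 8 libraries whose omission ended the call were nTreg WT 1, 2 and 3, iTreg WT 1, 2 and 3, and iTreg mutant 1 and 2, with adjusted p up to 0.159. In iTregs Prps1 was at 156, 158 and 168 CPM in WT and 233, 214 and 209 CPM in mutant libraries. All mutant iTreg libraries were above all WT ones, and the rise of 0.44 ± 0.13, or 1.36-fold, passed (adjusted p = 0.0235). It did not pass without iTreg WT library 1 (adjusted p = 0.0942), WT library 2 (adjusted p = 0.0838), mutant library 1 (adjusted p = 0.0865) or mutant library 2 (adjusted p = 0.0534), at values of 0.40 to 0.46.

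A copy of Prps1, Prps1l3, is 93.2% identical over 1478 aligned bases and had 54.6% of the count of Prps1. Because a read with several alignments was counted at each, the values of both are uncertain. Prps1l3 was at 55.6 and 52.7 CPM in WT and mutant nTregs and at 69.0 and 84.7 CPM in WT and mutant iTregs. It did not pass in nTregs (-0.08 ± 0.07, adjusted p = 0.45) and rose in mutant iTregs (0.30 ± 0.07, adjusted p = 0.0141).

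Me1 (ENSMUSG00000032418, chr9:86581371-86695953, minus strand) encodes cytosolic malic enzyme, which forms NADPH from malate. It had no count in any of the 3 WT nTreg libraries and 25, 16 and 2 counts in mutant nTreg libraries 1, 2 and 4. In iTregs it had 2, 1 and 2 counts in WT and 6, 3 and 6 counts in mutant libraries. In both kinds of Treg each mutant library had more Me1 than each WT library, at levels of at most 0.79 CPM. Against a floor of 3 counts over the WT group, Me1 summed over the mutant nTreg libraries was at least 12.1-fold higher. This is a lower bound set by the floor, as WT nTregs had no count. The bound was 7.15-fold without library 1, which held 25 of the 43 counts and also the highest CD8 T and NK marker sum. These values pool the libraries and leave out the spread between them, and library 4 had only 2 counts (0.0608 CPM). In iTregs the ratio was 3.2 (95% interval 1.11 to 11.3, counting error only). Me1 had too few counts for the edgeR test. With no filter on low counts the nTreg difference passed (adjusted p = 0.000551, edgeR) and the iTreg difference did not (adjusted p = 0.297). Stretches of 2 other annotated genes resemble Me1, Gm48795 (98.7% identical over 1159 aligned bases) and Gm7049 (98.4% over 1716 aligned bases). Neither was among the genes counted, so the few counts of Me1 are uncertain.

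Idh1 (ENSMUSG00000025950, chr1:65158616-65186500, minus strand) encodes cytosolic isocitrate dehydrogenase, which forms NADPH from isocitrate. WT nTreg libraries had 9.40, 12.9 and 10.7 CPM and mutant nTreg libraries 7.14, 10.6 and 12.3 CPM, and its iTreg values were 6.56, 5.67 and 7.27 CPM (WT) and 8.41, 7.16 and 5.86 CPM (mutant). The genotypes overlapped in both kinds of Treg. The differences of -0.14 ± 0.20 in nTregs (adjusted p = 0.618) and 0.14 ± 0.20 in iTregs (adjusted p = 0.663) did not pass, and the nTreg value was 0.08 without nTreg mutant library 1. With 193 to 464 counts a library, Idh1 had the fewest counts of the tested enzymes.

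**Figure D3:**
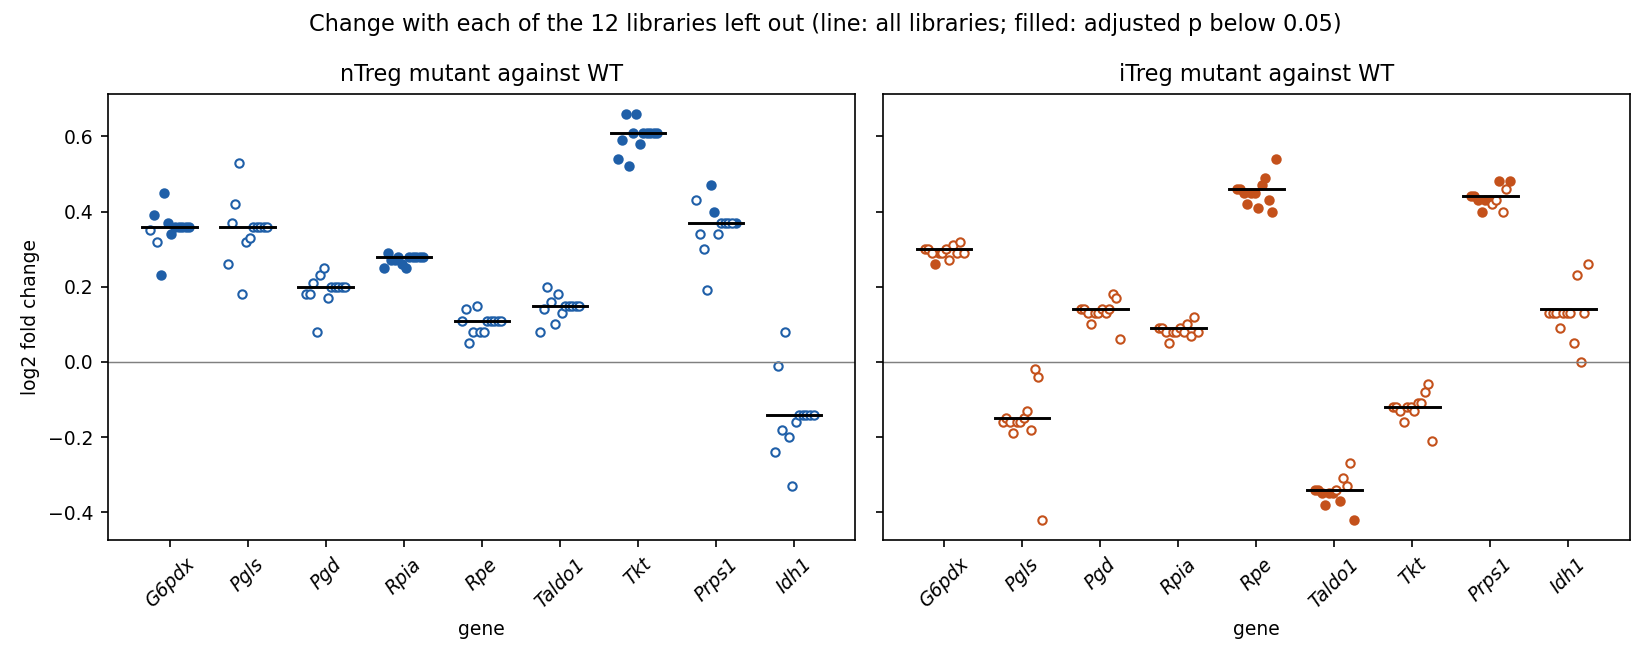
Log2 fold change of mutant against WT for each tested enzyme with each of the 12 libraries left out in turn, nTregs on the left and iTregs on the right, with a line at the value from all libraries and filled points where the adjusted p was below 0.05. Tkt and Rpia in nTregs and Rpe in iTregs are filled at all 12 points, while Prps1 in nTregs is filled at 3.

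nTreg mutant library 1 was the highest of its group for 7 of the 10 enzymes. Beside its markers of CD8 T and NK cells, its dividing-cell markers summed to 3590 CPM against 2120 and 2140 CPM in the other mutant nTreg libraries. Counting only the 9 tested enzymes, every mutant library lay above every WT library for 3 in nTregs (25.7% of all genes tested did so) and for 5 in iTregs (26.8% of all genes tested). Every mutant library lay below for Taldo1 in iTregs (19.7% of all genes tested) and for none in nTregs (22.6%).

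Levels can be set side by side only per length, and CPM per kb of the exon length used for counting is given here. In WT nTregs Taldo1 stood first at 24.6 CPM per kb and Prps1 followed at 21.4 CPM per kb, with overlapping libraries. Tkt (15 CPM per kb) and Rpe (13.8 CPM per kb) also overlapped each other, and G6pdx came next at 12.5 CPM per kb. Below them were Pgd at 7.51 CPM per kb and Rpia at 6.86 CPM per kb, then Pgls at 4.06 and Idh1 at 3.98 CPM per kb, which overlapped. In mutant nTregs Prps1 (27.7 CPM per kb) overlapped Taldo1 (27.4 CPM per kb), Taldo1 overlapped Tkt (22.8 CPM per kb), and G6pdx at 16.1 overlapped Rpe at 14.9 CPM per kb. In WT iTregs Prps1 led at 80.6 CPM per kb, followed by Tkt at 24.5, Taldo1 at 21.9, G6pdx at 14.1 and Rpe at 13.3 CPM per kb, and only G6pdx and Rpe of these overlapped. Pgd at 7.52 and Rpia at 7.43 CPM per kb overlapped, and Pgls at 5.79, Idh1 at 2.34 and Me1 at 0.0123 CPM per kb came last. In mutant iTregs Prps1 reached 110.0 CPM per kb, Rpe at 18.3 CPM per kb passed to the third place, and Taldo1 at 17.3 CPM per kb went to the fifth, with overlaps among Rpe, G6pdx and Taldo1. The order depends on the length taken. With the principal transcript, which is 2218 against 6447 bases for Pgd and 893 against 3770 bases for Pgls, Prps1 at 21.7 CPM per kb stood behind Taldo1 and Tkt in the WT nTreg order, with libraries that overlapped those of Pgd (21.8 CPM per kb) and Rpia (20.1 CPM per kb).

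**Figure D4:**
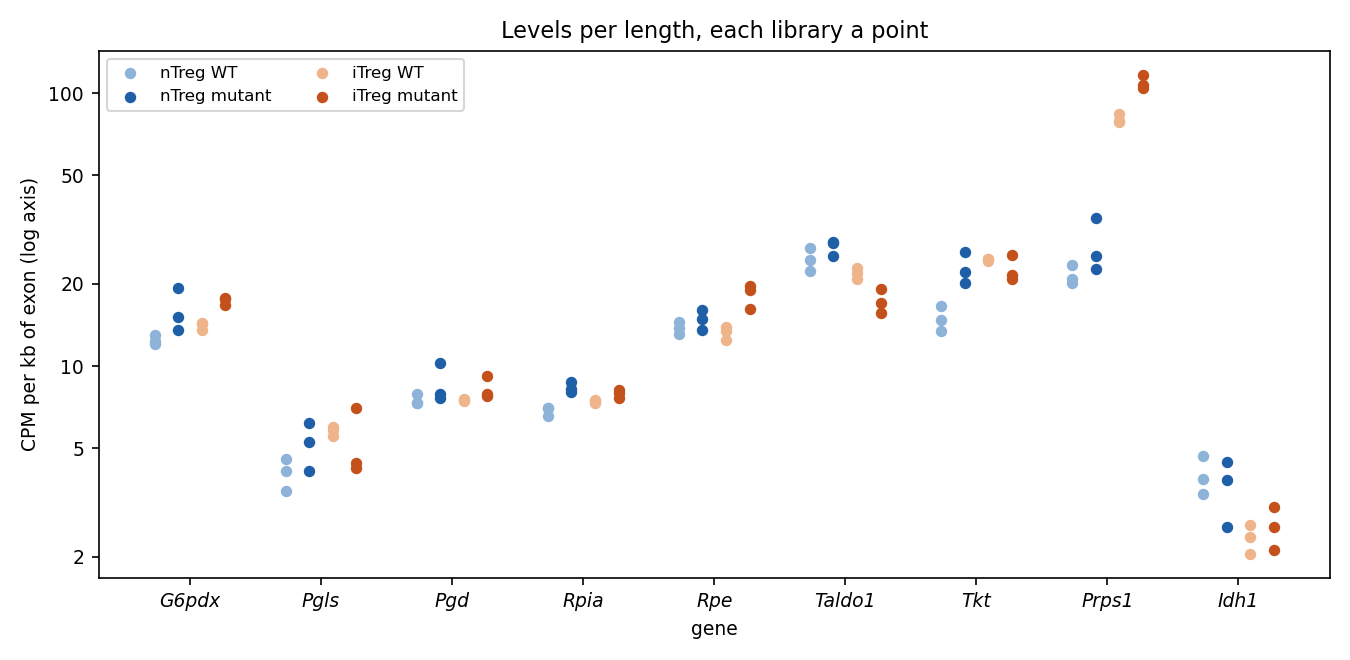
CPM per kb of exon on a log axis for the 9 tested enzymes, each point a library, coloured by group; Me1 is left out because it is at 0 in WT nTregs. Prps1 in iTregs lies above all other points, and Idh1 and Pgls lie lowest.

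In WT iTregs against WT nTregs 3 of the 9 tested enzymes rose, 1 fell and 5 did not pass, against 69.5% of all genes called (33.7% higher and 35.7% lower). Prps1 was 3.76-fold higher (log2 1.91 ± 0.13, adjusted p = 9.44e-08), from 42.7 ± 3.46 to 161 ± 6.23 CPM (SD, n = 3). Tkt was 1.64-fold higher (0.71 ± 0.11, adjusted p = 7.08e-05), and Pgls 1.43-fold higher (0.51 ± 0.19, adjusted p = 0.028). The Pgls call was lost when nTreg WT library 1, nTreg WT library 2, iTreg WT library 1 or iTreg WT library 2 was omitted (adjusted p = 0.105, 0.0578, 0.0649 and 0.0662) and when library size alone set the scale (adjusted p = 0.0667). Idh1 fell by 0.76 on the log2 scale (SE 0.20, adjusted p = 0.00427), from 11 ± 1.79 to 6.50 ± 0.802 CPM. Pgd, at 48.4 ± 2.22 and 48.5 ± 0.438 CPM, and Rpia, at 36.8 ± 1.34 and 39.8 ± 0.567 CPM, did not pass. For 5 enzymes every iTreg library lay above every nTreg library (37.9% of all genes tested did so), and for Idh1 every one lay below (39.9%). Summed B cell, myeloid and erythroid markers were higher in nTregs than in iTregs of both genotypes. Their part in the differences between the kinds of Treg was not tested.

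In mutant iTregs against mutant nTregs 2 of the 9 rose, 2 fell and 5 did not pass, against 68.2% of all genes called (33.2% higher and 35% lower). This comparison shares its libraries with the genotype comparisons. Prps1 was 3.97-fold higher (1.99 ± 0.13, adjusted p = 6.83e-08) and Rpe rose by 0.30 ± 0.09 (adjusted p = 0.0092), or by 0.11 ± 0.08 (adjusted p = 0.211) when library size alone set the scale. Taldo1 fell by 0.66 (SE 0.09, 0.633-fold, adjusted p = 3.74e-05), from 59.4 ± 3.86 to 37.6 ± 3.68 CPM, with no overlap. Idh1 fell by 0.49 (SE 0.20, adjusted p = 0.0432), with overlap and with the call lost when any of 6 libraries was left out: nTreg WT 3, nTreg mutant 2 and 4, iTreg WT 1, and iTreg mutant 2 and 4 (adjusted p up to 0.197). Without nTreg mutant library 4 the Idh1 value was -0.31. Tkt, which differed by kind in WT cells, was at 149 ± 20.4 and 148 ± 16.5 CPM in mutant nTregs and iTregs. Prps1 and Rpe were higher in every mutant iTreg library than in every mutant nTreg library (33.6% of all genes tested), and Taldo1 was lower (35.2%).

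Of 10 paralogs of these enzymes, 7 were tested. In mutant nTregs 2 of them rose (G6pd2, the retrocopy, by 0.52 ± 0.16, adjusted p = 0.0212, and Idh2) and 1 fell (H6pd), against 34.9% of all genes called, and in mutant iTregs 1 rose (Prps1l3) and none fell, against 25.4%. Prps2, the other widely expressed phosphoribosyl pyrophosphate synthetase, was at 121, 112, 125 and 138 CPM in WT nTregs, mutant nTregs, WT iTregs and mutant iTregs, and it did not pass between WT kinds (0.04 ± 0.07, adjusted p = 0.616). Me2, the mitochondrial malic enzyme, was at 73.4, 77.0, 159 and 167 CPM in the same order. Idh2, the mitochondrial NADP-dependent isocitrate dehydrogenase, was at 14.8, 23.1, 36.2 and 37.9 CPM. Me2 and Idh2 thus rose from WT nTregs to WT iTregs (1.11 ± 0.14, adjusted p = 1.21e-05, and 1.29 ± 0.13, adjusted p = 1.88e-06), while cytosolic Idh1 fell. H6pd, the glucose-6-phosphate dehydrogenase of the endoplasmic reticulum, was at 35, 27.9, 21.4 and 18.7 CPM. Unlike G6pdx it fell in mutant nTregs (-0.32 ± 0.08, adjusted p = 0.00743).

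Related genes were taken as 5 lists and counted whole. Up to 3 members of each were named by their adjusted p in nTregs, and further members were picked after their values were seen. Of 11 tested other pentose phosphate genes, 1 rose and 2 fell in mutant nTregs (median -0.07). Dera, deoxyribose-phosphate aldolase, rose by 0.56 ± 0.11 (adjusted p = 0.00273), while H6pd and Prpsap2, a regulatory partner of the phosphoribosyl pyrophosphate synthetases (-0.20 ± 0.07, adjusted p = 0.0491), fell. In mutant iTregs none rose and 1 fell (median 0.00), Shpk, sedoheptulokinase (-0.63 ± 0.14, adjusted p = 0.00794). The shares of all genes called, to set beside this and the next 4 lists, were 19.3% higher and 15.6% lower in nTregs and 14% higher and 11.4% lower in iTregs. Without nTreg mutant library 1 the nTreg counts for this list were 1 higher and 1 lower.

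Of 10 tested other sources of NADPH and NADP, 4 rose and none fell in mutant nTregs (median 0.29), and 3 rose and none fell in mutant iTregs (median 0.08, and -0.01 with scaling by library size alone, where 1 rose), against 19.3% and 14% of all genes higher. In nTregs Mthfd2, a mitochondrial folate dehydrogenase, rose by 0.93 ± 0.09 (adjusted p = 9.37e-05) and Mthfd1, its cytosolic counterpart, by 0.77 ± 0.14 (adjusted p = 0.00144). Aldh1l2, the mitochondrial formyltetrahydrofolate dehydrogenase, also rose (adjusted p = 0.00221), with 2 counts in all WT nTregs and 48 in mutant nTregs, a ratio of 20.3 (95% interval 5.31 to 172.0, counting error only). Idh2 was the fourth to rise (0.65 ± 0.13, adjusted p = 0.00265). In iTregs Mthfd2l (0.48 ± 0.11, adjusted p = 0.00954) and the NAD kinases Nadk (0.20 ± 0.07, adjusted p = 0.0427) and Nadk2 (0.31 ± 0.09, adjusted p = 0.0222) rose. Mthfd2, Mthfd1 and Aldh1l2 did not pass there, and the genotype effect was lower there than in nTregs for Mthfd2 (-0.85 ± 0.12, adjusted p = 0.00319), Mthfd1 (-0.68 ± 0.19, adjusted p = 0.0347), Idh2 (-0.58 ± 0.18, adjusted p = 0.0482) and Aldh1l2 (adjusted p = 0.00967).

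Of 20 tested users of NADPH, 7 rose and 1 fell in mutant nTregs (median 0.22), and 5 rose and 2 fell in mutant iTregs (median 0.15), against 34.9% and 25.4% of all genes called. Ncf1, a subunit of the phagocyte-type NADPH oxidase, rose in mutant nTregs by 0.97 ± 0.13 (adjusted p = 0.00044) and Nqo1, a quinone reductase, by 1.65 ± 0.27 (adjusted p = 0.00105). In iTregs the sterol synthesis enzymes Sqle (0.44 ± 0.12, adjusted p = 0.0223) and Cyp51 (0.44 ± 0.07, adjusted p = 0.00232) rose. Fasn, fatty acid synthase, rose in mutant nTregs (0.40 ± 0.07, adjusted p = 0.00166) and fell in mutant iTregs (-0.28 ± 0.07, adjusted p = 0.0142), and these effects differed (-0.68 ± 0.10, adjusted p = 0.00321). Ncf1 (0.36 ± 0.13, adjusted p = 0.0577) and Nqo1 (0.71 ± 0.26, adjusted p = 0.0605) did not pass in iTregs.

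Of 11 genes of upper glycolysis, from which the pathway branches and to which it returns, 7 rose and none fell in mutant nTregs (median 0.42), and none rose and 3 fell in mutant iTregs (median 0.15), against 19.3% of all genes higher in nTregs and 11.4% lower in iTregs. Hk2, 1 of the 3 hexokinases in the list, rose in mutant nTregs by 1.5 ± 0.23 (adjusted p = 0.000616), Tpi1, triose-phosphate isomerase, by 1.31 ± 0.20 (adjusted p = 0.000757) and Gapdh by 0.87 ± 0.14 (adjusted p = 0.000893). Hk2 was at 7.84 and 22.2 CPM in WT and mutant nTregs, where Hk1 was at 97.5 and 111 CPM. The list includes Gapdh, which takes the step after upper glycolysis. The genes that fell in mutant iTregs were Gpi1 (-0.31 ± 0.07, adjusted p = 0.00698), Pfkl (-0.38 ± 0.13, adjusted p = 0.0442) and Aldoc (-0.84 ± 0.26, adjusted p = 0.0317), although the list's median was above 0. Gpi1, the isomerase that competes with G6pdx for glucose 6-phosphate, rose in mutant nTregs (0.20 ± 0.07, adjusted p = 0.0325), as did Pfkl, a phosphofructokinase (0.40 ± 0.13, adjusted p = 0.0262). The iTreg effect was lower than the nTreg effect for 6 of the 11 genes, against 7.18% of all genes, among them Hk2 (-0.99 ± 0.30, adjusted p = 0.0493), Tpi1 (-0.94 ± 0.28, adjusted p = 0.0456) and Gapdh (-0.72 ± 0.20, adjusted p = 0.0331). Tkt and Taldo1, whose products include glycolytic sugar phosphates, were the 2 of the 9 tested enzymes that passed the test of this difference.

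Of 8 targets of NRF2, 3 of which are also among the NADPH users, 5 rose and 1 fell in mutant nTregs (median 0.66), and 1, Srxn1 (1.09 ± 0.23, adjusted p = 0.00705), rose and none fell in mutant iTregs (median 0.21), against 34.9% and 25.4% of all genes called. Beside Nqo1, Txnrd1, thioredoxin reductase, rose in mutant nTregs (0.86 ± 0.16, adjusted p = 0.00204) and Osgin1 fell (-1.43 ± 0.26, adjusted p = 0.00175). Without nTreg mutant library 1 the nTreg counts of higher and lower genes were 4 and 0 for other NADPH sources, 7 and 1 for users, 6 and 0 for glycolysis and 6 and 1 for NRF2 targets. Without iTreg mutant library 4 the iTreg counts were 1 and 1 for other pentose phosphate genes, 2 and 0 for other NADPH sources, 5 and 3 for users, 0 and 2 for glycolysis and 1 and 0 for NRF2 targets.

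**Figure D5:**
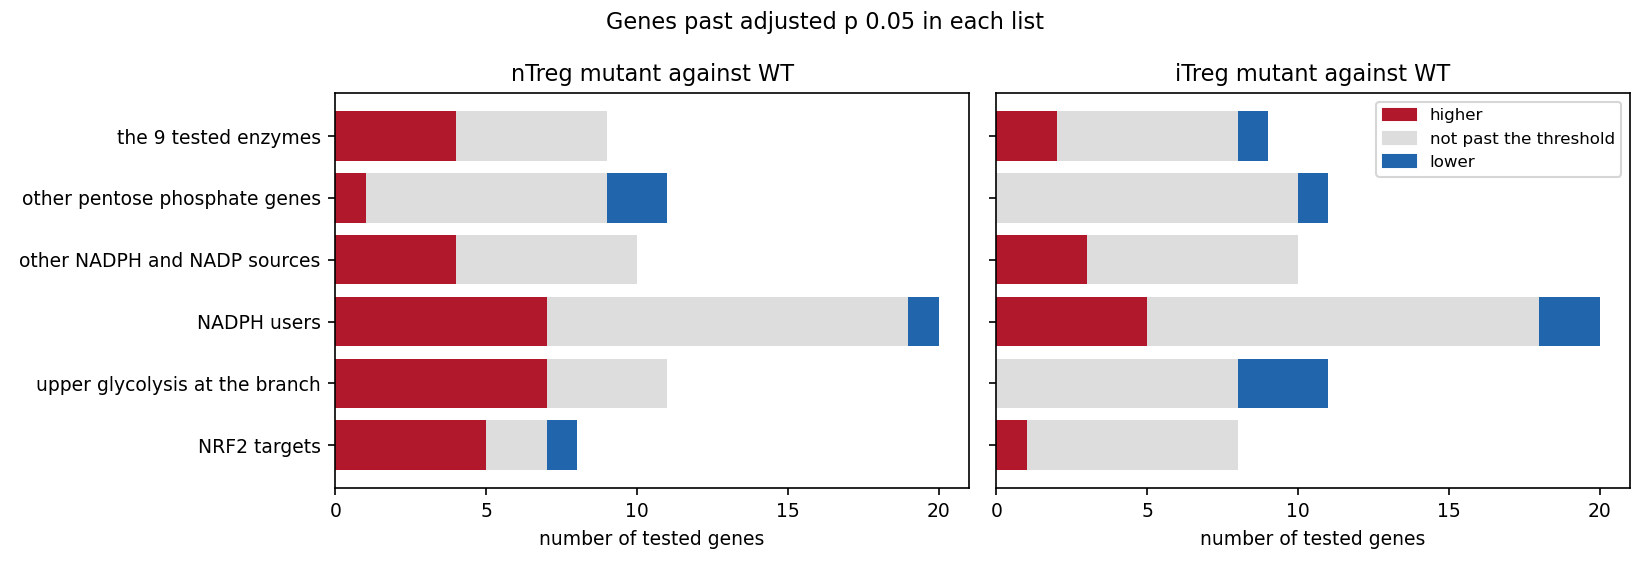
Number of tested genes that rose, did not pass or fell in mutant against WT cells, for the 9 tested enzymes and the 5 related lists, nTregs on the left and iTregs on the right. In nTregs 7 of 11 upper glycolysis genes are marked higher and none lower, and in iTregs none higher and 3 lower.

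The enzymes varied unequally over the 12 libraries. The SD of log2(CPM + 1) was 1.04 for Prps1, larger than for 94.9% of tested genes, and 0.11 for Rpia, larger than for 5.23%. For G6pdx it was 0.22, larger than for 32.5%. The genes most like G6pdx, by the root mean square difference of centred log2(CPM + 1) over the 12 libraries among 9399 genes, were Ppp2cb (0.050), Snx25 (0.053), Dcaf13 (0.062), Cwc15 (0.067) and Gm7407 (0.069). Of the 8 other tested enzymes, which were not in that search, Rpia was nearest at 0.13. The 12 libraries fall into 4 groups, so they are not independent points, and the measure is a description.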

How the data were processed

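Integer gene counts of 12 libraries were used as deposited. Per the file headers, the authors counted reads with featureCounts 1.5.2 on Ensembl release 87 (GRCm38), counting exons by gene with the reverse-strand setting. A read overlapping several genes was assigned by largest overlap, and one aligning to several places was counted at each, which makes counts of near-identical copies uncertain. Per the submitters' processing notes, reads were aligned with STAR 2.5.2b to mm10. Libraries were made with a stranded mRNA kit, per the labels' protocols. Of 49671 genes, 49326 matched a symbol and 345 did not.

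All genes kept by filterByExpr (17977) were fitted with edgeR 4.0.16 (R 4.3.3): TMM scaling, a mean for each of 4 groups, 8 residual degrees of freedom, quasi-likelihood F-test, two-sided, Benjamini-Hochberg over all genes tested, threshold 0.05. The fit was also run on simulated counts with changes placed in mutant nTregs only, and the outcome is not reported here. Log2 fold changes are edgeR's fitted values, with an SE taken from the same F-test. CPM use TMM library sizes. Counts per library for the tested enzymes ran from 193 (Idh1) to 7934 (Prps1), and intervals and floors (3 counts) cover counting error only. Copies were searched with BLAST 2.17.0 (identity of at least 90% over at least 400 bases).

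All 10 enzymes are described whatever their values. The enzymes, lists and tests were chosen with earlier results of these data known. In a list, up to 3 genes were named by adjusted p in nTregs, and a few that this rule would name are left unreported. Further genes of a list were named after their values were seen. The list without library 1 or 4 of a mutant group, list counts under other scalings, Me1 without library 1 and the principal transcript length were added after seeing the data. For likeness to G6pdx, genes needed a mean of at least 5 CPM and an SD of at least that of G6pdx less 25 percent. Alternatives were RLE scaling, library size alone, no filter, 1 CPM in 3 libraries, DESeq2 1.42.0, fits of only the compared groups, a block for replicate number, and leaving out every library in turn.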

Additional observations from a re-analysis of the deposited data

Results flagged for a closer look

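The genotype effect on Tkt differed between the kinds of Treg: it was lower in iTregs than in nTregs by a log2 difference of -0.72 ± 0.15 (edgeR interaction test, adjusted p = 0.011). The genotype effect on Taldo1 also differed, by -0.49 ± 0.13 (adjusted p = 0.0279). Groups of 3 libraries were too small for a search for outlying values.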

How the results depend on the processing

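The first tally covers the alternatives other than leaving a library out, and it includes the fits of only the compared groups. There 278 of the values for single enzymes kept their direction and their side of the threshold. Of the rest, 8 lost a call, 8 gained one and 12, none of them called, changed sign. With a library left out, 481 kept both, 36 lost and 7 gained a call, and 16 changed sign. The causes were not tested.

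With the compared libraries alone, 2 enzymes were higher in mutant nTregs (4 with all libraries), 2 lower in WT iTregs against nTregs (1), where G6pdx was now higher (0.16 ± 0.06, adjusted p = 0.0264), and 1 lower in mutant iTregs against nTregs (2). DESeq2 called 1 enzyme with a higher effect in iTregs, Rpe (0 with edgeR). Scaling by library size alone left 1 enzyme higher in mutant iTregs against nTregs (2). With each library left out, 2 to 4 of the 9 enzymes were higher in mutant nTregs, or 3 to 5 with Me1 counted. Me1 entered the test and passed there without nTreg WT 1, 2 or 3, nTreg mutant 4 or any iTreg library. It entered only while nTreg mutant libraries 1 and 2, with 25 and 16 counts, were both kept. The filter thus let Me1 in through the group where it was high, so its passing there is no support. The counts in mutant iTregs ranged from 1 to 3 for higher and 0 to 1 for lower. In the difference of effects they were 0 to 1 for higher and 1 to 3 for lower. For lower they were 1 to 2 in WT iTregs against nTregs and 1 to 2 in mutant iTregs against nTregs.

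Replicate numbers 1 and 2 occurred in every group, number 3 only in WT groups and number 4 only in mutant groups. Same-numbered libraries did not deviate together (correlations of -0.06 to 0.05), which gave no sign of pairing. These correlations cannot show whether same-numbered libraries share an animal or a batch. A block for number 3 or 4 lies within 1 genotype, so the block fit cannot tell it apart from genotype in those libraries. With the replicate number as a block, 4 enzymes were higher in mutant nTregs, 0 lower in mutant iTregs (Taldo1 -0.30, adjusted p = 0.0793), 1 lower in the difference (Taldo1 -0.50, adjusted p = 0.0504) and 1 lower in mutant iTregs against nTregs, where Pgls was -0.02.

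Changes of sign were of uncalled values. For Pgd in WT iTregs against nTregs they were -0.03 (RLE scaling), -0.05 (library size alone), -0.03 (DESeq2), -0.01 (compared libraries alone) and -0.02 to 0.03 over all libraries left out. In mutant iTregs against nTregs G6pdx was -0.07 with library size alone, and Pgls was -0.03 (RLE scaling), -0.19 (library size alone), -0.05 (1 CPM filter), -0.03 (DESeq2), -0.03 (compared libraries alone) and -0.26 to 0.16 with libraries left out. There Tkt ranged from -0.10 to 0.05 and Pgd from -0.13 to 0.01 with libraries left out. Idh1 ranged from -0.33 to 0.08 in mutant against WT nTregs. In the difference of effects G6pdx ranged from -0.16 to 0.02, Pgd from -0.14 to 0.02 and Prps1 from -0.04 to 0.21, and Prps1 was -0.05 with library size alone.

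Scaling by library size alone moved the median log2 fold change of all genes from -0.00 to -0.14 in the difference and from -0.02 to -0.20 in mutant iTregs against nTregs. The share of called genes that were higher went from 55.4% to 65.4% in nTregs, 55.2% to 35.5% in iTregs, 46% to 17.8% in the difference and 48.7% to 36% in mutant iTregs against nTregs. With the 1 CPM filter it was 45% in iTregs and 34.4% in the difference. Counts of Me1 were too low for a test of a moderate change.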
